A study of Mus musculus with 107 samples.

Results

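Interleukins and their receptors were followed over the livers of 104 female F2 mice. Members were all probes whose single gene symbol starts with Il and a number, apart from Il2rb. That rule took 60 of 23536 probes, for 56 genes. A probe was kept when it had a measured value on at least 90% of the 104 arrays, which left 48 member probes of 44 genes among 20633 kept probes. The rule reads letters only, so it also took Il4i1, an L-amino acid oxidase induced by interleukin-4, and Il18bp, a soluble decoy that binds interleukin-18.

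The F2 mice descended from 2 inbred strains, DBA/2J and C57BL/6J, and all of them ate an atherogenic diet. On 2-colour arrays, RNA of each liver competed with 1 common pool, to which the samples gave equal portions, so every value is a log2 ratio of a mouse to that pool. Of 107 arrays, 3 held only 0 or missing values, and the other 104 form a single group, with no control group and no repeated array. The spread over mice therefore includes array noise.

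Interleukins are secreted signals that immune, epithelial and stromal cells exchange. Each acts through a receptor made of a private chain and, often, a chain shared with other interleukins, such as gp130 (Il6st) for the interleukin-6 group. In the liver, interleukin-6 and interleukin-1 drive hepatocytes to make acute phase proteins, Kupffer cells are a main source of such signals, and decoys and receptor antagonists hold them in check.

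A ratio to a pool carries no level, so no gene's abundance can be set against another's, and the labelled tissue could not be checked by the levels of its markers. In bulk liver, fewer cells of a type and less RNA per cell cannot be told apart. Mouse over pool is the likely direction of the ratios, read from the order of the sample titles, but it was not settled. Turned round, each median would carry the opposite sign, while ranges and correlations would stay as given. The log base was not settled either. It was taken as 10, and every fold and log2 value given here rests on that reading. Read as natural logs, far fewer members would range over 2-fold, while correlations would stay as given.

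A set of 18 arrays, called limit-rich, had 946 to 1828 values at the limits, and the other 86 arrays had 0 to 496. The set was defined by these counts, and the labels name no batch. Values at the limits were treated as not measured, and correlations are also given within the 86 other arrays and the 18 limit-rich arrays. Array medians lay between -0.07 and 0.07 log2.

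The promoters of 5 members whose values carry the results are shown first. They are RefSeq sequences of the build GRCm38.p6, each from 250 bases before to 50 bases after the annotated start, written 5′ to 3′ on the gene's strand. A promoter was found for 33 of the 44 kept genes. Capitals mark matches to short motifs on either strand. Il6 and Il1a encode the cytokines, Il1b the second interleukin-1, Il18bp the decoy and Il7r the interleukin-7 receptor chain.
Il6, chr5:30012864-30013163, plus strand: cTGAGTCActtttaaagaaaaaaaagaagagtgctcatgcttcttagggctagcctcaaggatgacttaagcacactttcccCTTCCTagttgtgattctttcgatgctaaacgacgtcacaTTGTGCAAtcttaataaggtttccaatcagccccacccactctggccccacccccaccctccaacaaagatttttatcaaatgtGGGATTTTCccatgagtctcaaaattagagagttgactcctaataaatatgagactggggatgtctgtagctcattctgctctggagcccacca
Il1a, chr2:129309923-129310222, minus strand: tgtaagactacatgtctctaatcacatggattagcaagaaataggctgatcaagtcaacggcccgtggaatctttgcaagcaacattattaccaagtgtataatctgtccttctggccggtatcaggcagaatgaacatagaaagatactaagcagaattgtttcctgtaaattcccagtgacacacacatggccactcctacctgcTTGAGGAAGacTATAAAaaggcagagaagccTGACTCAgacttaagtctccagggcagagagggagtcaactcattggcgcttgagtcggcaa
Il1b, chr2:129371090-129371389, minus strand: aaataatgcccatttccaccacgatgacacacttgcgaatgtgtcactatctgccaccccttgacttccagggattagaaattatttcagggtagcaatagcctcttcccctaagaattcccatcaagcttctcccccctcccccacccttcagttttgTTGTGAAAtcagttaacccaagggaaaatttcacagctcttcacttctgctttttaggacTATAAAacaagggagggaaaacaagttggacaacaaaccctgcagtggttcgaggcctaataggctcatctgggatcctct
Il18bp, chr7:102018183-102018482, minus strand: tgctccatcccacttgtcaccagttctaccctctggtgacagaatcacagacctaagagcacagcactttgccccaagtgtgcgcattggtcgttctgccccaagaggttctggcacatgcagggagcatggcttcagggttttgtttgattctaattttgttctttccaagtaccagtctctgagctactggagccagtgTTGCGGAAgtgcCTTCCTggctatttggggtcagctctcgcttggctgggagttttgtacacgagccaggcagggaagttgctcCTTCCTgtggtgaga
Il7r, chr15:9529827-9530126, minus strand: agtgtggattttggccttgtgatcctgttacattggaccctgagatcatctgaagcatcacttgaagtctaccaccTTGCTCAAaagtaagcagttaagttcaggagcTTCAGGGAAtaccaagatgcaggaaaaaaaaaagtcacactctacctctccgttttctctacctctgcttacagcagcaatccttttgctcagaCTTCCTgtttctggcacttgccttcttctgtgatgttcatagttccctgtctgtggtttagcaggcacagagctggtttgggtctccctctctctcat

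The motifs searched were GGGANTTTC for NF-kB, TGANTCA for AP-1, TTGNGNAA for C/EBP, TTCNNNGAA for STAT, GAAANNGAA for interferon response, AGGAAG for ETS and TATAAA for the TATA box, with N for any base. The Il6 window held GGGATTTTC 44 bases before the start, a match to the NF-kB motif, which 1.11% of 32851 promoters of this length hold. It also held TGAGTCA for AP-1 (in 7.81% of promoters), TTGTGCAA for C/EBP (in 13.3%) and CTTCCT for ETS. The Il1a window held TGACTCA for AP-1, TATAAA (in 13.6%), and overlapping C/EBP (TTGAGGAA) and ETS (AGGAAG) matches. The Il1b window held a C/EBP match (TTGTGAAA) and TATAAA, and the Il18bp window a C/EBP match and an ETS motif (in 35.4%) on the other strand at 2 places. The Il7r window held a C/EBP match, a STAT match (in 8.30%) and an ETS match. No window held the interferon response letters, which are in 8.56% of promoters. These matches are descriptions of letters in a window.

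The members differed widely in how far they ranged over mice. The range of a probe is given here as the ratio of its 95th to its 5th percentile over mice. Of the 48 kept member probes, 32 (66.7%) ranged over more than 2-fold, against 47.6% of all kept probes, and 8 (16.7%) over more than 4-fold, against 8.58%. The median range was 2.36-fold in members and 1.96-fold in all kept probes. As a gauge of noise, 4 probes of Y-linked genes, which these female mice lack, ranged over 2.23-fold to 2.95-fold. Whether these 4 probes pick up other transcripts was not tested. The 80 probes of olfactory, vomeronasal and taste receptors had a median range of 1.89-fold, with 46.3% over 2-fold and a 95th percentile of 4.63-fold. Of the members, 17 probes ranged wider than the widest Y-linked probe and 6 wider than that 95th percentile. A range near 2-fold on these arrays was thus also seen for probes of genes these mice lack.

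**Figure D1:**
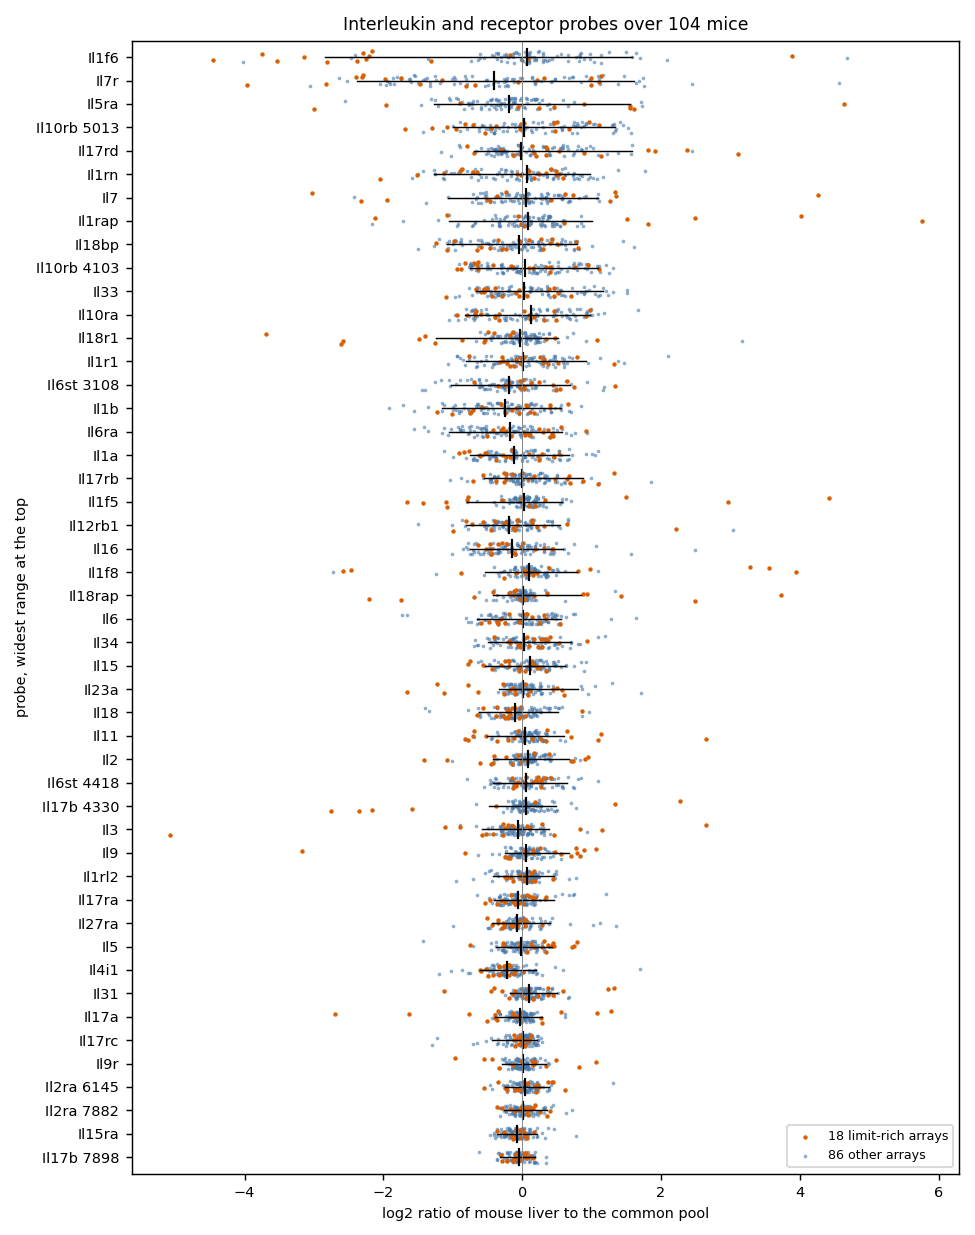
Log2 ratio to the common pool (x axis) of the 48 kept interleukin probes (y axis, widest range at the top) in each of 104 mice; black lines run from the 5th to the 95th percentile, ticks mark medians, orange points are the 18 limit-rich arrays and blue points the 86 others, and the digits after a symbol end its probe number. Il1f6, Il7r and Il5ra have the widest ranges, and several probes such as Il1f8 have far values on limit-rich arrays.

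Among the interleukin-1 family ligands and inhibitors, all 9 kept probes ranged over more than 2-fold, with a median of 3.28-fold. Il1f6, which encodes interleukin-36 alpha, had the widest range of all members, 21.6-fold. Its lowest, median and highest log2 ratios were -4.46, 0.07 and 4.68 in 99 mice. The range was 4.88-fold in the 86 other arrays and 42.5-fold in the 14 limit-rich arrays with a value. Its mean was -1.89 log2 in limit-rich arrays, against 0.17 log2 in the others, the largest such gap among the members. Its width thus differed between the 2 sets of arrays.

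Il1rn, the interleukin-1 receptor antagonist, ranged over 4.72-fold, with a lowest value of -2.05, a median of 0.07 and a highest of 1.77 log2 in 104 mice. Its range was as wide within the 86 other arrays (4.81-fold) and nearly so within the 18 limit-rich ones (4.40-fold). Il18bp ranged over 3.67-fold, with -1.50, -0.05 and 1.62 log2 as its lowest, median and highest values. Its ranges within the 86 and the 18 arrays were 3.60-fold and 3.70-fold. Il1rn and Il18bp therefore had similar widths in both sets of arrays.

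Il33, an alarmin released by damaged cells, ranged over 3.55-fold, with -1.10, 0.02 and 1.51 log2 as lowest, median and highest. Il1b ranged over 3.28-fold (-1.91, -0.25 and 0.84 log2) and Il1a over 2.71-fold (-1.12, -0.13 and 1.10 log2). Il18, which is cut to its active form by caspase-1, ranged over 2.19-fold. Il1f5, the interleukin-36 receptor antagonist, and Il1f8, interleukin-36 beta, ranged over 2.59-fold and 2.50-fold in all mice but 1.74-fold and 1.76-fold in the 86 other arrays. In the 15 limit-rich arrays with a value, Il1f5 ranged over 29.9-fold.

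Of the receptor chains of this family, Il1rap, the chain shared by several interleukin-1 receptors, ranged over 4.19-fold in 97 mice and 2.93-fold in the 86 other arrays. Its mean was 1.18 log2 in limit-rich arrays, against -0.00033 log2 in the others. Il1r1, the signalling interleukin-1 receptor, ranged over 3.33-fold and over 3.32-fold in the 86 other arrays. Il18r1 ranged over 3.38-fold in all mice and 1.90-fold in the 86, and its partner chain Il18rap over 2.41-fold and 1.49-fold. Il1rl2, the interleukin-36 receptor, ranged over 1.84-fold.

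Among the receptors that use the common gamma chain, Il7r had the second widest range of all members, 15.9-fold. Its log2 ratio had a lowest value of -3.96, a median of -0.41 and a highest of 4.56 in 104 mice. The range was 12.3-fold in the 86 other arrays and 17.3-fold in the 18 limit-rich ones, so it was wide in each. Il7, its ligand, ranged over 4.50-fold in all mice and 2.95-fold in the 86. Il15, a survival signal for natural killer cells, ranged over 2.21-fold and its receptor chain Il15ra over 1.5-fold. Il2 ranged over 2.12-fold, and both Il2ra probes over less than 1.6-fold, at 1.56-fold and 1.53-fold.

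Il5ra, the private chain of the interleukin-5 receptor, which eosinophils carry, ranged over 7.05-fold in 96 mice, with -3.01, -0.19 and 4.64 log2 as its lowest, median and highest values. That width was 3.37-fold in the 86 other arrays and 48.7-fold in the 11 limit-rich arrays with a value. A further 7 of its values stood at the upper limit and 1 at the lower. Both chains of the interleukin-10 receptor ranged over more than 3-fold: the Il10rb probe 10018175013 over 5.04-fold (-1.70, 0.02 and 1.57 log2), the Il10rb probe 10018184103 over 3.61-fold (-0.94, 0.04 and 1.31 log2) and Il10ra over 3.48-fold (-1.06, 0.13 and 1.67 log2).

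In the interleukin-17 family, 2 of 7 probes ranged over more than 2-fold. Il17rd, a receptor-like chain also known as a brake on fibroblast growth factor signalling, ranged over 4.82-fold, with -1.18, -0.02 and 3.10 log2 as its lowest, median and highest values and 3.58-fold in the 86 other arrays. Il17rb ranged over 2.68-fold. Il17ra, the chain shared by the family's receptors, ranged over 1.81-fold, Il17rc over 1.57-fold and the cytokine Il17a over 1.60-fold. In the interleukin-6 group, Il6 ranged over 2.31-fold (-1.73, 0.01 and 1.63 log2), Il6ra over 3.09-fold and the 2 Il6st probes over 3.29-fold and 2.09-fold.

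The 12 member probes below the 90% limit were those of Il4, Il21, Il10, Il20, Il1r2, Il13, Il12b, Il12rb2, Il12a, Il13ra2, Il1rapl2 and Il22. They had values in 82 to 93 mice and were not tested further. Of these, 3 had no value on any limit-rich array. Between the 2 sets of arrays, limma called a difference for 10 of the 48 kept member probes at an adjusted p under 0.05, against 20.6% of all kept probes, a share near that of the members. The 10 were Il1f6, Il18r1, Il1rap, Il5, Il6ra, Il23a, Il17rd, Il15, and 1 probe each of Il17b and Il6st.

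To see which cells or responses the members varied with, each probe was set against 11 marker scores. A score is the mean over a list of marker genes, each scaled to an SD of 1 over mice. Every list lacked some markers, which had no kept probe. The acute phase score held 13 of 16 genes, without Saa1, Saa2 and Hpx, and the macrophage score 11 of 13, without Csf1r and Vsig4. The hepatocyte score held 6 of 9, without Tat, Cps1 and Serpina1a, and the endothelial score 7 of 9. Every kept probe outside the score's own list was fitted on it with limma, and a probe is called when its Benjamini-Hochberg adjusted p over all those probes is under 0.05. Pearson r and Spearman rho over mice accompany each named relation, with 100000 permutations, of which 1e-05 is the smallest p they can give. For all named relations of members with a score the permutation p of r was at most 0.00672. Of the 48 probes, 41 were called with at least 1 score, and so were 81.5% of all kept probes, so such a call is common on this array. The other 7 were Il1f5, Il1f8, Il18rap, Il11, Il31, Il17a and the Il17b probe 10018187898.

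The scores themselves varied together. The macrophage score correlated with the stellate cell score at r = 0.636, with the neutrophil score at 0.561, with the class II score at 0.536 and with the acute phase score at 0.496 (permutation p 1e-05 for each, 55 pairs of scores, adjusted p 6.11e-05). A call with 1 of these scores is therefore not separate from a call with another. For some named relations it is stated whether the call held with the first principal component of all kept probes as a covariate. The other 10 scores were used in the same way, a fit chosen after seeing the data. Where nothing is stated for a relation, its call may have been lost with either.

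**Figure D2:**
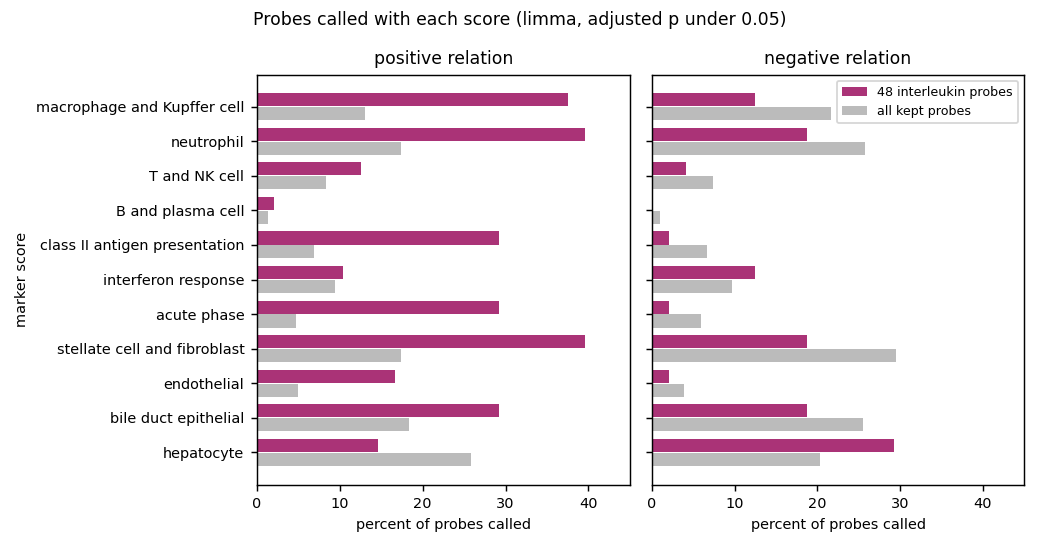
Percent of probes called with each of 11 marker scores (y axis), with positive relations on the left and negative ones on the right; the coloured bars are the 48 interleukin probes and the grey bars all kept probes. The coloured bars exceed the grey ones most for positive relations with the acute phase, class II and macrophage scores.

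Positive calls were more frequent among members than among all kept probes for most immune and stromal scores. With the acute phase score, 14 members were called positively (29.2%, against 4.64% of all kept probes) and 1 negatively (2.08%, against 5.9%). With the class II antigen presentation score, 14 were positive (29.2%, against 6.83%) and 1 negative (2.08%, against 6.66%). With the macrophage and Kupffer cell score, 18 were positive (37.5%, against 13.0%) and 6 negative (12.5%, against 21.7%). The median r with the macrophage score was 0.0862 over members and -0.0726 over all kept probes. These shares describe the members and no test of the list was made.

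With the neutrophil score, 19 were positive (39.6%, against 17.4%) and 9 negative (18.8%, against 25.8%). With the stellate cell and fibroblast score the counts were the same, 19 positive (39.6%, against 17.4%) and 9 negative (18.8%, against 29.5%). With the endothelial score, 8 were positive (16.7%, against 4.94%) and 1 negative (2.08%, against 3.89%). The hepatocyte score gave the reverse order, with 7 positive (14.6%, against 25.8%) and 14 negative (29.2%, against 20.3%).

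With the bile duct epithelial score, 14 were positive (29.2%, against 18.3%) and 9 negative (18.8%, against 25.5%). For the T and NK cell, interferon response and B and plasma cell scores the shares lay nearer the background. With the T and NK cell score, 6 were positive (12.5%, against 8.31%) and 2 negative (4.17%, against 7.46%). The interferon response score gave 5 positive (10.4%, against 9.39%) and 6 negative (12.5%, against 9.68%). The B and plasma cell score gave 1 positive (2.08%, against 1.27%) and 0 negative (background 1.04%) by limma, with 4 negative at an unadjusted p under 0.05.

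**Figure D3:**
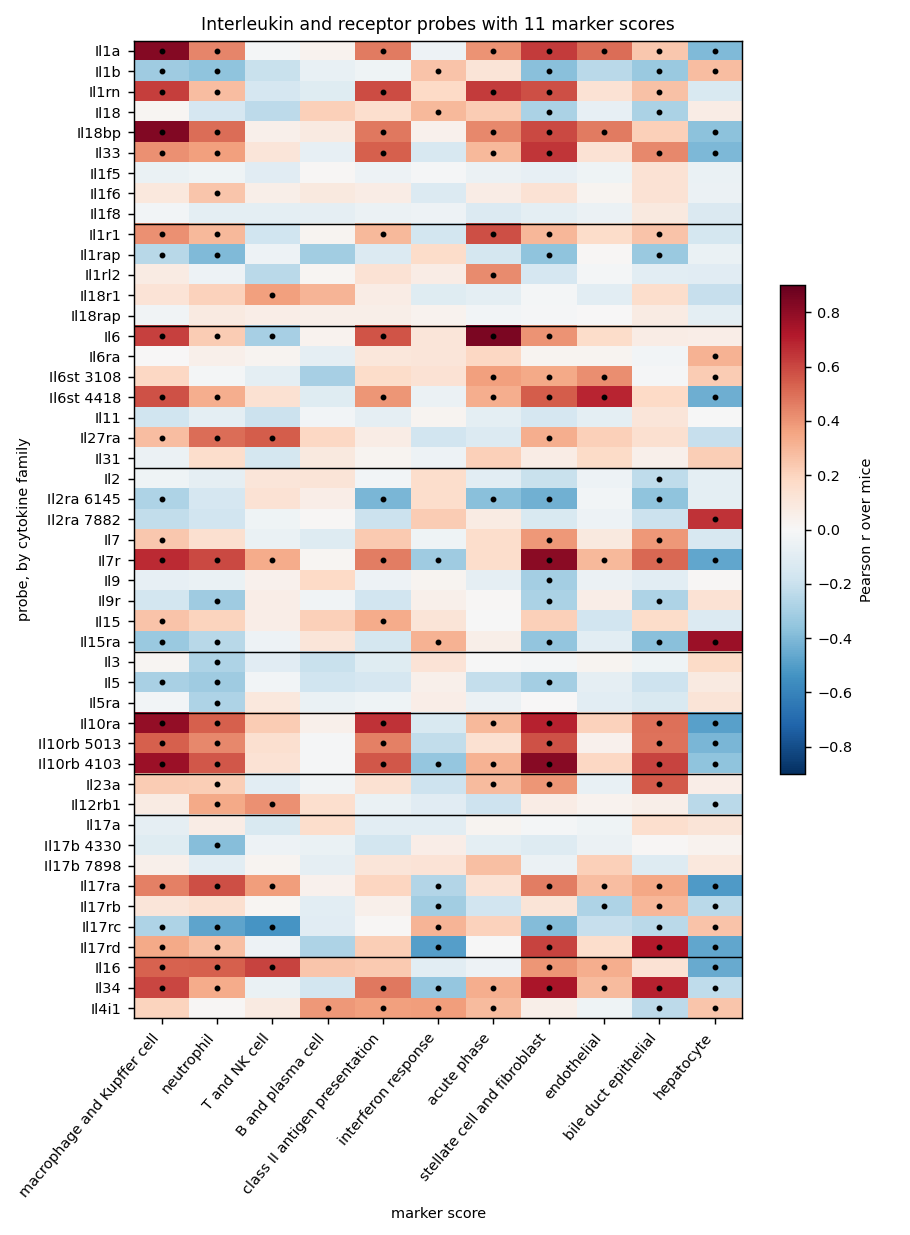
Pearson r over mice (colour, red positive and blue negative) of each of the 48 kept interleukin probes (rows, grouped by cytokine family with lines between families) with 11 marker scores (columns); dots mark probes called by limma at an adjusted p under 0.05. Il1a, Il18bp, Il10ra, the Il10rb probes and Il7r have long red rows, while Il1b, Il17rc and Il15ra are blue with the macrophage and stellate scores.

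By Pearson r, the acute phase score held the closest relation of any member with a score, that of Il6. By rho other relations were closer, such as that of Il7r with the stellate cell score. Acute phase proteins such as serum amyloid A and orosomucoid are plasma proteins that hepatocytes make in inflammation, and interleukin-6 is their main inducer. Il6 correlated with the score at r = 0.844 (95% interval 0.778 to 0.891) and rho = 0.767, with a slope of 0.72 ± 0.05 log2 per unit of score (SE) and a limma adjusted p of 1.56e-25. The r was 0.853 in the 86 other arrays and 0.746 in the 18 limit-rich ones, and 0.789 without the 2 mice farthest from the median score. The call held with both covariate sets (adjusted p 5.45e-25 and 1.08e-13). In the 18 limit-rich arrays alone the adjusted p was 0.110.

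Il1rn followed at r = 0.631 (interval 0.499 to 0.734, rho = 0.619, adjusted p 5.67e-10) and Il1r1 at r = 0.582 (interval 0.439 to 0.697, rho = 0.502, adjusted p 5.08e-08). Each kept its call with either covariate set. Il1r1 was at r = 0.614 in the 86 other arrays and 0.356 in the 18. Il1rl2 correlated at r = 0.423 with a rho of 0.202. Both Il6st probes were called, at r = 0.368 and 0.326, while the other receptor chain of interleukin-6, Il6ra, was not. The only negative call was the Il2ra probe 10018176145, at r = -0.379 (adjusted p 0.00251), which was lost with the other scores in the fit (adjusted p 0.515).

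**Figure D4:**
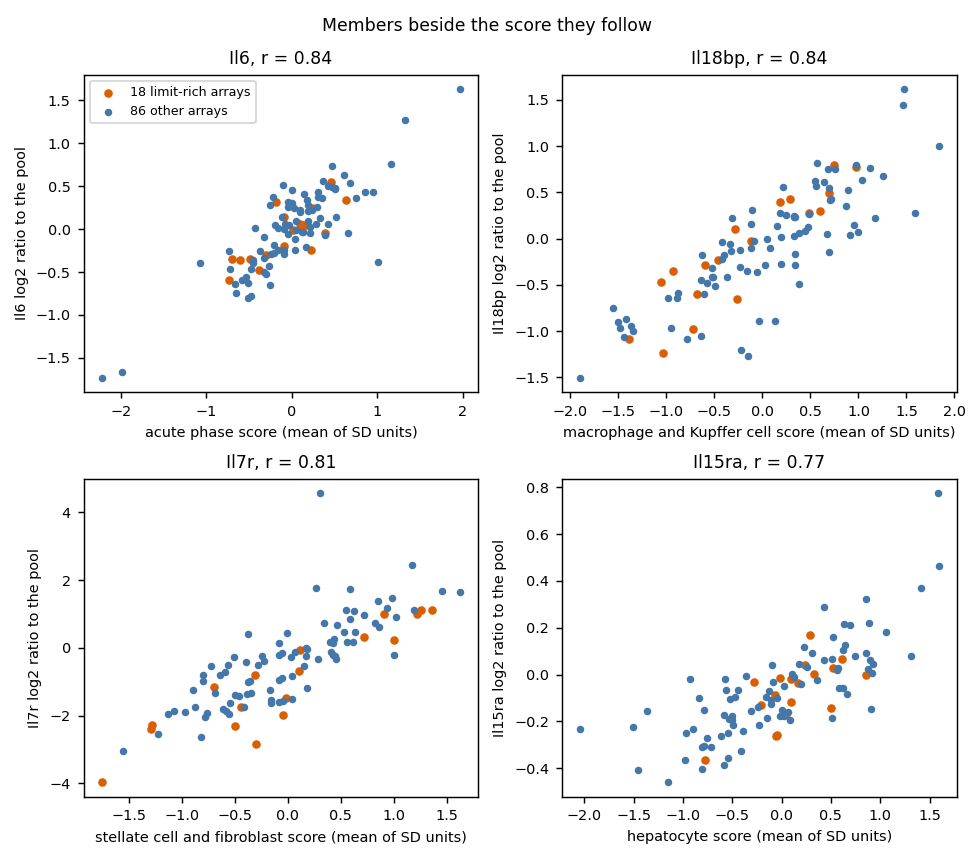
Log2 ratio to the pool (y axes) of Il6, Il18bp, Il7r and Il15ra against a marker score each (x axes, mean of SD units) over 104 mice, with the 18 limit-rich arrays in orange and the 86 others in blue. The points rise together in each panel, with r of 0.844, 0.836, 0.810 and 0.767, and 2 mice lie far below the rest in the Il6 panel.

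The macrophage and Kupffer cell score, from genes such as Adgre1, Cd68 and C1qa, was led by Il18bp at r = 0.836 (interval 0.767 to 0.886, rho = 0.844, slope 0.66 ± 0.04 log2, adjusted p 3.65e-26). Il1a followed at r = 0.823 (interval 0.750 to 0.877, rho = 0.837, adjusted p 1.27e-24) and Il10ra, the ligand-binding chain of the interleukin-10 receptor, at r = 0.792 (interval 0.707 to 0.854, rho = 0.817, adjusted p 1.26e-21). All 3 kept their calls in the 18 limit-rich arrays alone, with r of 0.901, 0.839 and 0.893, and with both covariate sets.

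Il1b ran the other way. Macrophages are its textbook source, yet its probe correlated with the macrophage score at r = -0.320 (interval -0.483 to -0.136, rho = -0.310, adjusted p 0.00411). The r was -0.281 in the 86 arrays and -0.539 in the 18, and the call was lost with either covariate set (adjusted p 0.983 and 0.527). The Il1b probe moved closely with probes of other genes: 81 kept probes correlated with it at r above 0.9, more than for any other member. The nearest named ones were 1700017N19Rik (r = 0.975), Epha3, an ephrin receptor (0.975), and Ccdc150 (0.971), whose own r with the macrophage score were -0.416, -0.423 and -0.426. Whether this probe reports Il1b transcript was not tested, and the same holds for the probes of the other members. Above the same r, the Il10rb probe 10018184103 had 40 probes, Il7r 8, Il15ra 6, Il10ra 3 and Il6 2. Il15ra was the other leading negative member, at r = -0.332 (adjusted p 0.00344), and its call was lost with either covariate set.

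With the class II score, from the antigen-presenting molecules and their regulator, Il10ra led at r = 0.649 (interval 0.522 to 0.748, rho = 0.680, adjusted p 3.79e-11). Il1rn followed at r = 0.590 (rho = 0.648, adjusted p 6.12e-09) and Il6 at r = 0.569 (rho = 0.576, adjusted p 3.43e-08). Of these, Il10ra alone kept its call with the other 10 scores in the fit (adjusted p 1.78e-04). The Il2ra probe 10018176145 was the only negative call, at r = -0.413. With the other 10 scores in the fit, 0 members were called negatively by limma, and 2 were negative at an unadjusted p under 0.05.

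The neutrophil score, from granule genes such as Ngp and S100a8, was led by Il7r (r = 0.591, interval 0.449 to 0.703, rho = 0.651, adjusted p 2.08e-09), Il17ra (r = 0.583, rho = 0.501, adjusted p 5.72e-09) and the Il10rb probe 10018184103 (r = 0.561, rho = 0.607, adjusted p 1.90e-08). Il7r and Il10rb lost their calls with either covariate set (adjusted p 0.803 or more), and Il17ra kept its call with the other scores (adjusted p 0.0421) but not with the first component (0.181). Il17rc was negative at r = -0.477 (rho = -0.412) and Il1rap at r = -0.394, with a rho of -0.183 and an r of -0.169 in the 86 other arrays (adjusted p 0.211). Neither kept its call with the covariates. So none of these 5 neutrophil relations kept its call with both covariate sets.

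The stellate cell and fibroblast score, from collagens and other genes of the cells that lay down matrix in the liver, was led by the Il10rb probe 10018184103 at r = 0.816 (interval 0.739 to 0.872, rho = 0.817, adjusted p 4.27e-24). Il7r followed at r = 0.810 (interval 0.732 to 0.868, rho = 0.848, adjusted p 1.01e-23). Both kept their calls with either covariate set and in the 18 limit-rich arrays alone, with r of 0.899 and 0.914 there. Il34, a ligand of the receptor for colony-stimulating factor 1, came next at r = 0.736 (rho = 0.767, adjusted p 2.60e-17), and its call was lost with the other 10 scores in the fit (adjusted p 0.618). Il33 was also called, at r = 0.645. The most negative members called were the Il2ra probe 10018176145 (r = -0.435) and Il17rc (r = -0.393). With the first component as a covariate the slope of Il17rc turned positive.

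The bile duct epithelial score, from keratins and other genes of cholangiocytes, was led by Il17rd at r = 0.716 (interval 0.607 to 0.798, rho = 0.530, adjusted p 9.17e-16). The r was 0.789 in the 86 other arrays and 0.748 in the 18. Il34 followed at r = 0.692 (rho = 0.504, adjusted p 3.46e-14) and the Il10rb probe 10018184103 at r = 0.609 (rho = 0.550, adjusted p 1.81e-10). Il17rd and Il34 kept their calls with both covariate sets, and Il10rb lost its call with the first component (adjusted p 0.831). Il23a, the private subunit of interleukin-23, was called at r = 0.555 (rho = 0.413). Il15ra (r = -0.377) and the Il2ra probe 10018176145 (r = -0.361) were negative here as well.

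The endothelial score was led by the Il6st probe 10018184418 at r = 0.688 (interval 0.572 to 0.778, rho = 0.720, adjusted p 3.09e-13), which kept its call with both covariate sets. Il1a (r = 0.505) and Il18bp (r = 0.466) followed, and Il17rb was the only negative call (r = -0.277, adjusted p 0.0479). No member was called with this score in the 18 limit-rich arrays alone, where 1 had an unadjusted p under 0.05 and the Il6st r was 0.447.

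The hepatocyte score, from plasma protein and metabolic genes such as Alb and Apoa1, was led by Il15ra at r = 0.767 (interval 0.674 to 0.836, rho = 0.789, adjusted p 4.12e-18). Its slope was 0.22 ± 0.02 log2 per unit of score, on a narrow range of 1.5-fold over mice. The Il2ra probe 10018187882, also of narrow range (1.53-fold), followed at r = 0.648 (interval 0.520 to 0.747, rho = 0.662, adjusted p 7.56e-12). Next came Il6ra, the interleukin-6 receptor that hepatocytes carry, at r = 0.311 (interval 0.126 to 0.475, rho = 0.337, adjusted p 0.00370). All 3 kept their calls with both covariate sets. Il17ra (r = -0.512, rho = -0.497, adjusted p 2.63e-07) and Il10ra (r = -0.490, rho = -0.488, adjusted p 8.43e-07) led the negative side and also kept theirs. No member was called with this score by limma in the 18 limit-rich arrays alone, and 4 had an unadjusted p under 0.05.

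The T and NK cell relations rested largely on 2 mice, numbered 20 and 26. They had the highest T and NK scores (2.43 and 4.40) and the lowest acute phase scores (-2.23 and -1.99). The lowest Il6 values were theirs as well, at -1.73 and -1.66 log2. Il16, a chemoattractant of CD4 cells, had r = 0.605 and rho = 0.354, and its r was 0.365 without the 2 mice farthest from the median score (adjusted p 0.0114) and -0.280 in the 18 limit-rich arrays. Il27ra had r = 0.542 with a rho of 0.179, and 0.175 without those mice. Il12rb1, a chain of the interleukin-12 and interleukin-23 receptors, had r = 0.410 and 0.212 without them (adjusted p 0.243). Il17rc had r = -0.528 but rho = 0.0274, and -0.0121 without them, and Il6 had r = -0.298, with 0.146 without them. Of the 8 members called in all mice, 0 were called by limma on ranks (5 members at an unadjusted p under 0.05), and without those 2 mice 1 of the 8 was called, Il16. The other member called without them was Il4i1, at r = 0.482 (adjusted p 1.48e-04), against r = 0.0817 in all mice (adjusted p 0.654).

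Il4i1 was the only member called with the B and plasma cell score by limma (r = 0.387, rho = 0.281, adjusted p 0.00954), and its r was 0.178 without the 2 farthest mice. It also led the positive side of the interferon response score, at r = 0.378 (rho = 0.420, adjusted p 0.00137), before Il15ra (r = 0.313) and Il17rc (r = 0.304). Il17rd (r = -0.495, rho = -0.370, adjusted p 9.68e-06) and the Il10rb probe 10018184103 (r = -0.351) led the negative side. With the other 10 scores in the fit, 0 members were called with the interferon score by limma, and 10 had an unadjusted p under 0.05. With the first component, 0 members were called negatively by limma, and 1 was negative at an unadjusted p under 0.05. At the level of all kept probes the interferon calls of members were near the background.

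Partners of a ligand, its receptor or its decoy were set against each other in 15 pairs of probes, for 13 of 25 listed pairs of genes. A pair was called by limma in a fit of all kept probes on the first gene of the pair, and 6 of the 15 were called. Both pairs of Il10ra with Il10rb were called, the 2 chains that together form the interleukin-10 receptor, at r = 0.891 (interval 0.843 to 0.925, adjusted p 9.85e-34) and r = 0.816 (interval 0.739 to 0.871, adjusted p 3.88e-24). Of all kept probes, 49.0% were called with Il10ra in either direction, so much of the array varied with it. Within the 18 limit-rich arrays the r were 0.969 and 0.868.

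Il6ra with Il6st, the 2 chains that transmit interleukin-6, gave r = 0.526 on the Il6st probe 10018183108 (interval 0.371 to 0.652, adjusted p 2.56e-07, with 31.1% of all kept probes called with Il6ra in either direction). The Il6st probe 10018184418 gave r = -0.162 (interval -0.344 to 0.0314, adjusted p 0.213). The 2 probes of 1 gene thus lay on opposite sides of 0 with the same partner. Il6 itself was not called with Il6ra (r = -0.0067, interval -0.199 to 0.186, adjusted p 0.984, with 9.6% of all kept probes called with Il6 in either direction).

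Il7 with Il7r gave r = 0.371 (interval 0.190 to 0.529, rho = 0.341, adjusted p 0.00195, with 22.4% of all kept probes called with Il7). Il15 with Il15ra, which presents the cytokine to neighbouring cells, was not called, at r = -0.158 (interval -0.340 to 0.0359, adjusted p 0.301, with 9.62% of all kept probes called with Il15). Il17ra with Il17rc, the 2 chains of the receptor for interleukin-17A, gave r = -0.543 (interval -0.666 to -0.391, rho = -0.328, adjusted p 5.36e-08, with 39.1% called with Il17ra). That r was -0.560 in the 86 other arrays, -0.568 in the 18 and -0.413 without the 2 farthest mice. Il17ra with Il17rb was not called (r = 0.0312).

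In the interleukin-1 family, Il1b with Il1a gave r = -0.356 (interval -0.513 to -0.175, rho = -0.363, adjusted p 0.00158, with 27.4% called with Il1b). Il1b was not called with its antagonist Il1rn (r = -0.0275, interval -0.219 to 0.166) or its receptor Il1r1 (r = 0.0345, interval -0.159 to 0.226). The Il1b pairs rest on the probe that 81 kept probes followed at r above 0.9. Whether it reports Il1b transcript was not tested. Il1r1 was not called with Il1rap (r = -0.0682, interval -0.264 to 0.133, with 15.2% of all kept probes called with Il1r1). Il18 with its decoy Il18bp gave r = 0.0938 (interval -0.101 to 0.281, adjusted p 0.497, with 32.8% called with Il18).

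Il18r1 with Il18rap, the 2 chains of the interleukin-18 receptor, gave r = 0.139 over all arrays (interval -0.0578 to 0.326, rho = 0.0028, adjusted p 0.349, with 12.9% called with Il18r1). In the 86 other arrays it gave r = 0.455 (adjusted p 0.00109), and in the 18 limit-rich ones r = 0.267. That call rested on 1 mouse, number 26, the one farthest from the median of Il18r1 among the 86. It was also among the mice on which the T and NK relations rested. Without it r was -0.0959 (adjusted p 0.631), a fit chosen after seeing the data, and over all arrays r was 0.0868 without the 2 farthest mice.

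**Figure D5:**
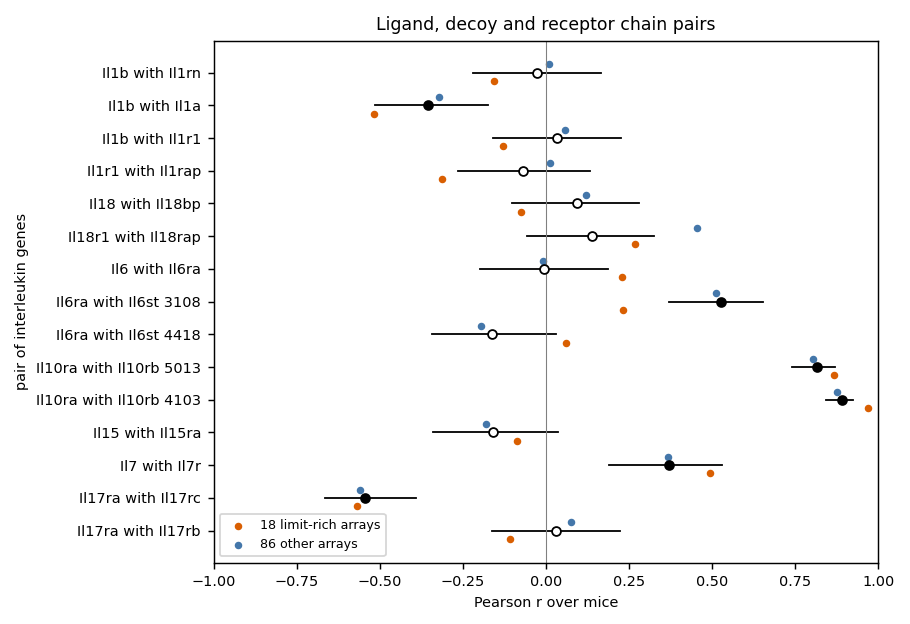
Pearson r over mice (x axis) of 15 pairs of interleukin probes (y axis); black circles and lines are r and its 95% interval over all mice with both values (filled where called by limma), orange points the 18 limit-rich arrays and blue points the 86 others, and the digits after a symbol end its probe number. Both Il10ra with Il10rb pairs lie farthest to the right, at 0.816 and 0.891, and Il17ra with Il17rc farthest to the left, at -0.543.

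For 4 genes 2 probes were kept, and they agreed to very different degrees. The Il10rb probes correlated at r = 0.800 (interval 0.718 to 0.860, rho = 0.793, permutation p 1e-05). The Il6st probes gave r = 0.283 (interval 0.0958 to 0.451, permutation p 0.00383). The Il2ra probes gave r = 0.0928 (interval -0.102 to 0.280) and the Il17b probes r = -0.0216 (interval -0.223 to 0.182). Over the 863 genes of the array with several kept probes the median was 0.188. Il2ra, the alpha chain of the interleukin-2 receptor, is thus named by a probe that followed the hepatocyte score and another that ran against the stellate cell, class II and acute phase scores.

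The genes most like each of the 6 widest members over mice were named by Pearson r, as a description with no test. For Il7r they were Rftn1 (r = 0.928, n = 104), a lipid raft protein of lymphocytes, Anxa1 (0.916), an annexin with anti-inflammatory roles, and Lpxn (0.913), an adhesion adaptor of leukocytes. For the Il10rb probe 10018175013 they were P2ry6 (0.870), a nucleotide receptor, Mitf (0.827), a transcription factor, and Il10ra (0.816). For Il1rn they were Steap4 (0.829), a metalloreductase, Tlr2 (0.804), a sensor of bacterial lipoproteins, and Nfkb2 (0.798), an NF-kB subunit. For Il17rd they were Igf1r (0.853), the receptor of insulin-like growth factor 1, Tgfb2 (0.852), a transforming growth factor, and Lamb2 (0.834), a laminin chain. These 12 r lay between 0.804 and 0.958 in the 86 other arrays and the 18 limit-rich ones, apart from Il1rn with Nfkb2, at 0.778 in the 86, and with Tlr2, at 0.795.

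The 2 widest members with limit values gave a different picture. Il1f6 was most like Nlgn1 (r = 0.830, n = 99), Glrx3 (0.787) and Erich2 (0.783), and Il5ra was most like Sncaip (0.761, n = 94), Nat3 (0.695) and Immt (0.676). The probe numbers of these partners lay within 112 of that of Il1f6 and within 221 of that of Il5ra. Among the companions of the other widest members, Nfkb2 also lay near, at a distance of 89 from Il1rn. Of the 100 probes that correlated best with a member, those within 500 in probe number were 22 for Il1f6, 21 for Il5ra, and 23 each for Il2 and Il3. About 4.5% of all kept probes lay in such a window for Il1f6 and 4.2% for Il5ra. Over the 48 members the median was 5 of 100, the lowest 0 (Il34 and Il1a) and the highest 23. What the probe number stands for on the array was not given in the sources used here, and its part in these correlations was not tested.

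Genes that work with the interleukins were taken from 3 lists. Of related cytokines and chains outside the symbol rule, 20 of 25 genes were kept, with 1 probe each. With the macrophage score 11 were called positively and 3 negatively by limma, where 13.0% of all kept probes were positive and 21.7% negative. The positive ones were led by Ebi3 (r = 0.887), the shared subunit of interleukin-27 and interleukin-35, Csf2ra (0.811) and Csf2rb2 (0.796), chains of the receptors for granulocyte-macrophage colony-stimulating factor and interleukin-3. With the acute phase score 9 were positive (4.64% of all kept probes) and 0 negative (also 0 at an unadjusted p under 0.05), led by Tnfrsf1a (0.622), a tumour necrosis factor receptor, Csf3r (0.612), the receptor of granulocyte colony-stimulating factor, and Osmr (0.438), the oncostatin M receptor. With the T and NK score 2 were positive (8.31% of all kept probes) and 0 negative (also 0 at an unadjusted p under 0.05). Ifng, interferon gamma, had r = 0.407 and 0.617 without the 2 farthest mice, and Ifngr1, its receptor, had r = 0.375 and -0.0611 without them. The median r of this list with the macrophage score was 0.50, against -0.0726 over all kept probes.

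Of the interleukin-1 signalling and inflammasome list, 16 of 21 genes were kept with 18 probes. With the macrophage score 5 probes were positive and 1 negative (13.0% and 21.7% of all kept probes), led by Casp1 (r = 0.859), which cuts interleukin-1 beta and interleukin-18, and Nfkb2 (0.525), while Sigirr, an inhibitory receptor, was at -0.449. With the acute phase score 2 were positive, Casp1 (0.416) and Nfkb2 (0.400), and 1 was negative, Irak1 (-0.291), a kinase below the receptor (4.64% and 5.9% of all kept probes). With the T and NK score 3 were positive (8.31% of all kept probes) and 0 negative (1 at an unadjusted p under 0.05), and their r fell without the 2 farthest mice. Ikbkb, a kinase that activates NF-kB, had 0.580 in all mice and 0.0246 without them, Tab1 0.3005 and -0.107, and Nfkbia, an inhibitor of NF-kB, 0.268 and 0.196. The rho of Ikbkb was 0.0291 and that of Tab1 -0.0065.

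Of the JAK, STAT and SOCS list, whose proteins carry most interleukin receptor signals, 17 of 21 genes were kept with 20 probes. With the acute phase score 3 probes were positive (4.64% of all kept probes) and 0 negative (also 0 at an unadjusted p under 0.05): Socs3 (r = 0.407, adjusted p 7.32e-04), the feedback inhibitor of interleukin-6 signalling, and both probes of Stat3 (0.380 and 0.320), its transcription factor. With the macrophage score 5 were positive and 2 negative (13.0% and 21.7% of all kept probes), led by Socs3 (0.526), Jak2 (0.326) and Socs1 (0.285). With the T and NK score 3 were positive (8.31% of all kept probes) and 0 negative (1 at an unadjusted p under 0.05). Socs1 had r = 0.558, and 0.493 without the 2 farthest mice. Jak3, which pairs with the common gamma chain, had 0.422 and 0.164 without them, and Stat4, which carries the interleukin-12 signal, 0.264 and -0.196. The median r of this list with the acute phase score was -0.0075, against -0.0207 over all kept probes. Over the named genes of the 3 lists the permutation p of r was at most 0.0284, and rho had the sign of r for each of them apart from Tab1.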

How the data were processed

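Liver RNA of 107 female F2 mice was measured on 2-colour arrays against a common pool, per the labels. The authors deposited 1 value per probe and array, taken as a log10 ratio of a mouse over the pool, since values stop at exactly -2 and 2. Neither log base, direction, dyes nor normalization is given in the sources used here. Columns were tied to mice by the labels. Log10 values were converted to log2, values at the limits were treated as missing (1.07% of values, beside 1.69% missing in the deposited table), and 3 empty arrays were left out. Arrays with over 700 limit values are the limit-rich set. Signal over background was not analysed here, and the number of arrays also limits the precision.

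Gene names came from the platform annotation and, for 14306 of 14744 probes with 1 symbol, the RefSeq gene table of GRCm38.p6. Of the others, 18 probes had several symbols and 8774 had none here. Probes were tested singly. Limma 3.58.1 (R 4.3.3; lmFit and eBayes) fitted every kept probe on each score or gene, with Benjamini-Hochberg adjustment over all of them at 0.05. Permutations (two-sided) and intervals of r (95%, Fisher) used numpy 2.4.6 and scipy 1.17.1. The limma fit was tested on simulated data. The text names the 10 widest probes, up to 3 positive and 2 negative calls per score, both partners of each pair, the 3 genes most like each of the 6 widest members, up to 3 called genes of each pathway list with the acute phase, macrophage and T and NK scores, and genes with several probes. Il33 and other members named beyond that rule, and the companions given for Il1b, were chosen after their values were seen. The members and lists were chosen with earlier results of these data known. Alternatives left out or isolated the limit-rich arrays, took them as a block, kept limit values, centred arrays, used ranks, complete probes, gene averages or the natural log, left out 1 or 2 mice, or added covariates.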

Additional observations from a re-analysis of the deposited data

How the results depend on the processing

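Of the 48 named relations with a score, all kept their direction and call with the limit-rich arrays as a block, 47 did with the probes of a gene averaged, 46 with limit values kept, 45 with arrays centred on their median and 45 without the limit-rich arrays. With the 2 farthest mice left out 43 kept both, on ranks 41, with the first principal component as a covariate 33, and with the other 10 scores as covariates 26. In the 18 limit-rich arrays alone, where fewer samples entered, 15 kept both and 4 changed direction. The cause of the changes in any of these settings was not tested. Among probes with a value on every array 46 kept both and 1 lost its call. Without the limit-rich arrays the ranges of Il1f6, Il5ra, Il7 and Il1rap fell to between 2.93-fold and 4.88-fold. With limit values kept, Il5ra ranged over 247-fold, Il1f6 over 34.5-fold, Il1rap over 8.15-fold and Il7 over 7.95-fold. Signal over background was not analysed, and 104 arrays without repeats limit what can be called.

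Counts of called members that differed by more than 1.5 times were as follows. In the 18 limit-rich arrays alone they were 11 with the macrophage score (24 in all mice), 15 with the stellate cell score (28), 8 with the bile duct score (23), 7 with the neutrophil score (28) and 0 by limma with the T and NK, interferon, acute phase, endothelial and hepatocyte scores (7, 11, 15, 1 and 4 at an unadjusted p under 0.05), and 2 pairs were called (6). Without the limit-rich arrays they were 17 for neutrophil, 5 for interferon (11) and 15 for bile duct. With the first component as a covariate they were 11 for macrophage, 3 for neutrophil, 6 for B and plasma cell (1), 4 for interferon, 15 for stellate cell, 5 for endothelial (9) and 8 for bile duct. With the other 10 scores as covariates, chosen after seeing the data, they were 8 for macrophage, 5 for neutrophil, 3 for B and plasma cell, 1 for class II (15), 0 for interferon (10 at an unadjusted p under 0.05), 4 for acute phase (15), 7 for stellate cell and 6 for bile duct. On ranks they were 24 for class II, 23 for acute phase, 5 for interferon, and 0 by limma for T and NK (8 in all mice) and for B and plasma cell (5 and 7 at an unadjusted p under 0.05). Without the 2 farthest mice they were 2 for T and NK and 7 for interferon. Centring gave 6 for interferon and 3 for B and plasma cell, and keeping limit values gave 3 for B and plasma cell. Read as natural logs, 4 members ranged over 2-fold in place of 32.

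Relations that changed sign included pairs near 0 in all mice and relations called in all mice. Values with a covariate are slopes on the log2 scale, or per SD for the first component, and the others are r, or rho on ranks. Without the limit-rich arrays Il1b with Il1rn was at 0.0086 and Il1r1 with Il1rap at 0.0111. Without these arrays and the mouse farthest from the median of the first gene, chosen after seeing the data, they were at 0.0295 and 0.0077, and Il18r1 with Il18rap at -0.0959. In the 18 alone Il1b with Il1r1 was at -0.128, Il18 with Il18bp at -0.0743, Il6 with Il6ra at 0.228, Il6ra with the Il6st probe 10018184418 at 0.0609, Il17ra with Il17rb at -0.107, Il16 at -0.280, Il17rc at 0.631 and Il6 at 0.0514 with the T and NK score, and Il4i1 at -0.457 with the B and plasma score. As a block, the 18 arrays left Il6 with Il6ra at an r of -0.0067 with a slope of 0.0113. Keeping limit values put Il1r1 with Il1rap at 0.0019, and centring put Il6 with Il6ra at 0.0025. On ranks Il1b with Il1r1 was at -0.0175, Il6 with Il6ra at 0.0186, Il17ra with Il17rb at -0.0059, and Il17rc at 0.0274 and Il6 at 0.0595 with the T and NK score. Averaging the Il6st probes gave 0.308 with Il6ra. Without the 2 farthest mice Il1b with Il1r1 was at -0.0102 and Il6 with the T and NK score at 0.146. With the first component Il1b with Il1rn was at 0.322, Il1r1 with Il1rap at 0.119, Il17ra with Il17rb at -0.713 (adjusted p 0.0155), Il1b with the macrophage score at 0.0053, the Il10rb probe 10018184103 at -0.0308 with the neutrophil, 0.0520 with the interferon and -0.0267 with the bile duct score, and Il17rc at 0.0833 with the stellate cell score. With the other 10 scores that Il10rb probe was at -0.0156 with the neutrophil score and Il15ra at 0.0079 with the bile duct score. Il18 with Il18bp became called with the first component (0.676, adjusted p 1.57e-04). No paired analysis was possible because the mice form 1 group.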

Other observations

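Further members had close companions over mice that no comparison above used. These were looked up after the values were seen, and r is given as a description. Il6 was most like Pphln1 (r = 0.923), Saa-ps, a serum amyloid A pseudogene (0.828), and Orm1, orosomucoid (0.809), in 104 mice. Il15ra was most like Slc7a1 (0.905), a cationic amino acid transporter, Hip1 (0.896) and Nme4 (0.895). Il1a was most like Msr1 (0.876), the macrophage scavenger receptor, P2ry14 (0.839) and Cybb (0.836), a subunit of the phagocyte oxidase. Il10ra was most like Ncf4 (0.915), another subunit of that oxidase, and Irf5 (0.912), a transcription factor of myeloid cells. Il18bp was most like Clec1b (0.836), a lectin receptor, Ly86 (0.812) and Itgb2 (0.809), an integrin of leukocytes.

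Il33 was most like Ccl2 (0.774), a chemokine that attracts monocytes, Cxcl14 (0.765) and Timp1 (0.748), an inhibitor of matrix proteases that is also in the stellate cell list. Il4i1 was most like Spib (0.651), a transcription factor of B cells and dendritic cells, Acod1 (0.615), which makes itaconate in macrophages, and Irf1 (0.602). The Il2ra probe 10018187882 was most like Mas1 (0.849) and Spo11 (0.847), a protein of meiotic recombination, and the Il2ra probe 10018176145 was most like Aunip (0.633) and Dtl (0.633), a gene of dividing cells.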
